A study of Mus musculus with 4 samples.

Results

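Cytochrome P450 families 2, 3 and 4 were followed with 82 probes for 57 genes, out of 41174 non-control probes with 28090 gene names on the array. The members were every non-control probe whose gene name on the array is Cyp, a family number of 2, 3 or 4, a subfamily letter and a gene number, so the choice used names and no measured value. Family 2 had 58 probes for 39 genes, family 3 had 7 probes for 5 genes and family 4 had 17 probes for 13 genes. The samples were iHep cells, hepatocyte-like cells that per the labels were induced from cells named MDFs of C57BL/6 mice, and all 4 samples share this origin. Each of 2 independent experiments, iHep-1 (replicate 1) and iHep-2 (replicate 2), gave 1 sample in 2D culture and 1 in 3D culture. A plus sign in the titles of the 2D samples alone is not explained in the labels, and what it marks cannot be told apart from culture.

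The P450s of these families are haem monooxygenases of the endoplasmic reticulum. They take electrons from the reductase Por and oxidise drugs, steroids, bile acids and fatty acids, and the adult liver is their main site. In liver, the receptors CAR (Nr1i3) and PXR (Nr1i2) drive Cyp2b, Cyp2c and Cyp3a genes in response to foreign compounds, and PPAR alpha (Ppara) drives Cyp4a genes. Many of these genes lie side by side as near-identical copies, which is why a probe for one can also capture the RNA of another.

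The probe sequences show how far such copies can be separated. Positions are those of the array files in mouse build mm9. A probe whose ends lie more than 60 bases apart in the genome spans a gap in its alignment, and exon and UTR annotation of this build was not used here. The following probes of Cyp2b, Cyp2a and Cyp3a genes are shown because they contrast readings annotated to a single gene with readings annotated to several:
Cyp2b10 (A_52_P472486, chr7:26702056-26702115, + strand): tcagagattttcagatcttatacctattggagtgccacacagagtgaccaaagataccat
Cyp2b13 (A_51_P492339, chr7:26873757-26880713, + strand): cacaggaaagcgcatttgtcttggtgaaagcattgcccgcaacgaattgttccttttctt
Cyp2b9 (A_52_P256914, chr7:26983484-26983543, + strand): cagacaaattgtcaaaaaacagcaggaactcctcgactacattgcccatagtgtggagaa
Cyp2a4 (A_52_P9703, chr7:27098659-27099724, + strand): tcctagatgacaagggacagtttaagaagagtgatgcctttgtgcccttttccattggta
Cyp3a11 (A_51_P355301, chr5:146672058-146673925, - strand): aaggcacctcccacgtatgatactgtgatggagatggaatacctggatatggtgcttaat
Cyp3a25 (A_52_P380314, chr5:146798525-146801518, - strand): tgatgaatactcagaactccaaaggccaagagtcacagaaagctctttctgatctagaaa

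Of these 6 probes, 4 are annotated on the array to transcripts of further genes. The Cyp2b13 probe also lists Cyp2b9, Cyp2b10 and Cyp2b23, the Cyp2a4 probe lists Cyp2a5, the Cyp3a11 probe lists Cyp3a41a, Cyp3a41b and Cyp3a44, and the Cyp3a25 probe lists Cyp3a57 and Cyp3a59. In all, 17 of the 82 probes, for 11 genes, list a transcript of another gene. The annotation field holds at most 4 entries, so a probe with 4 may match more.

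Pairs of probes were also aligned with each other. The Cyp2d9 pair is shown because both probes overlap in the genome, with the 27 shared bases in capitals, so they are not independent readings of the gene:
Cyp2d9 (A_51_P478303, chr15:82286799-82286858, + strand): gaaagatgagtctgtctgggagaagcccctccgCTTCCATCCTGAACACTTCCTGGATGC
Cyp2d9 (A_51_P124133, chr15:82286832-82286891, + strand): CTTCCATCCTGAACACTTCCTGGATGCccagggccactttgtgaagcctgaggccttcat

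A Cyp2c40 and a Cyp2c54 probe cover the same part of both genes and differ at 8 of 46 aligned bases, which are in capitals:
Cyp2c40 (A_52_P200121, chr19:39861388-39877026, - strand): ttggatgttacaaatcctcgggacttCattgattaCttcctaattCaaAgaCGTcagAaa
Cyp2c54 (A_52_P154580, chr19:40122119-40144700, - strand): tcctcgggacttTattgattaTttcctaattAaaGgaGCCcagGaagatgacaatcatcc

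Cyp2a4 and Cyp2a5 are closer still, with 3 mismatches in 38 aligned bases, in capitals in the 30-base stretch that holds them:
Cyp2a4 (A_51_P377154, bases 23 to 52): aggacacTTCgtagacttgcagaggatatt
Cyp2a5 (A_52_P246252, bases 1 to 30): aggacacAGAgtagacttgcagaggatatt

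Each value below is a level, the log2 of a probe's processed signal over the 75th percentile of that array's signals, so 1 unit is a 2-fold difference. Where 2 levels or differences are given together, a pair of levels in an experiment is 2D first and then 3D, and a pair of differences (3D minus 2D) is iHep-1 first and then iHep-2. Levels are compared between samples for 1 probe, never between probes, and the marker sums below are compared between samples only. A probe is called measured on an array where the scanner software marked it well above background. Total RNA of whole cultures was measured, so fewer cells of a type and less RNA per cell cannot be told apart. The 4 arrays had 23061 to 24414 measured probes and no saturated spots. The number of arrays limits the precision. Hepatocyte markers were checked first, and the 11 on the array, of 12 listed, were measured on all 4 arrays. Their summed level, in multiples of the 75th percentile, was 1406 to 1779 in 2D and 1939 to 2823 in 3D. Fibroblast markers summed to 5.35 to 6.01 in 2D and 8.21 to 8.95 in 3D, with Col6a3, Dcn, Lum, Postn and Thy1 of 14 measured on no array. Of the 7 measured on at least 2 arrays, 4 stood higher and 1 lower in both experiments (31.8% and 33.8% of all such probes). The brightest, Pdgfra, differed by 0.65 and 0.65, while Pdgfrb differed by -1.08 and -3.33. Intestinal markers summed to 24.0 to 27.8 in 2D and 49.7 to 66.7 in 3D, with Cdx1 and Muc2 of 10 measured on no array. Biliary and progenitor markers summed to 17.2 (2D) and 27.3 (3D) in iHep-1 and to 53.7 and 36.7 in iHep-2, with Prom1 of 9 measured on no array. Lung markers summed to 1.15 (2D) and 1.75 (3D) in iHep-1 and to 0.956 and 0.366 in iHep-2, with Sftpb of 7 measured on no array. Kidney proximal tubule markers summed to 10.2 to 13.2 in 2D and 4.01 to 6.46 in 3D, with Kap and Slc34a1 of 7 measured on no array. Of the 3 measured on at least 2 arrays, 1 stood higher and 2 lower in both experiments (31.8% and 33.8% of all such probes). The brightest, Cubn, differed by -1.38 and -1.05, while Aqp1 differed by 3.32 and 1.14. Immune and endothelial markers summed to 0.323 to 0.346 in 2D and 0.286 to 0.317 in 3D, with Kdr, Pecam1, Ptprc and Tek of 10 measured on no array. Each sum is set mostly by its brightest probes, so it does not describe every marker of its list. Spike-in scaling, described below, moves each 3D sum against its 2D sum by -1.80 log2 units in iHep-1 and -0.52 in iHep-2. The hepatocyte sum of iHep-1 then stands lower in 3D. The part of these markers in the P450 differences was not tested.

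Most of the genes were measured on at least 1 array. Of the 82 probes, 54 (2D) and 60 (3D) were measured for iHep-1, and 50 (2D) and 57 (3D) for iHep-2. On all 4 arrays 46 probes were measured, on 1 to 3 arrays 15, and on no array 21. The 21 include every probe of 11 genes, namely Cyp2c38, Cyp2d13, Cyp2e1, Cyp2j5, Cyp2j9, Cyp2j11, Cyp2j13, Cyp2w1, Cyp4a29, Cyp4a31 and Cyp4f15. Cyp2e1, the ethanol-oxidising P450 of mature hepatocytes, was thus not well above background in either culture, although 46 genes of these families were measured somewhere.

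**Figure D1:**
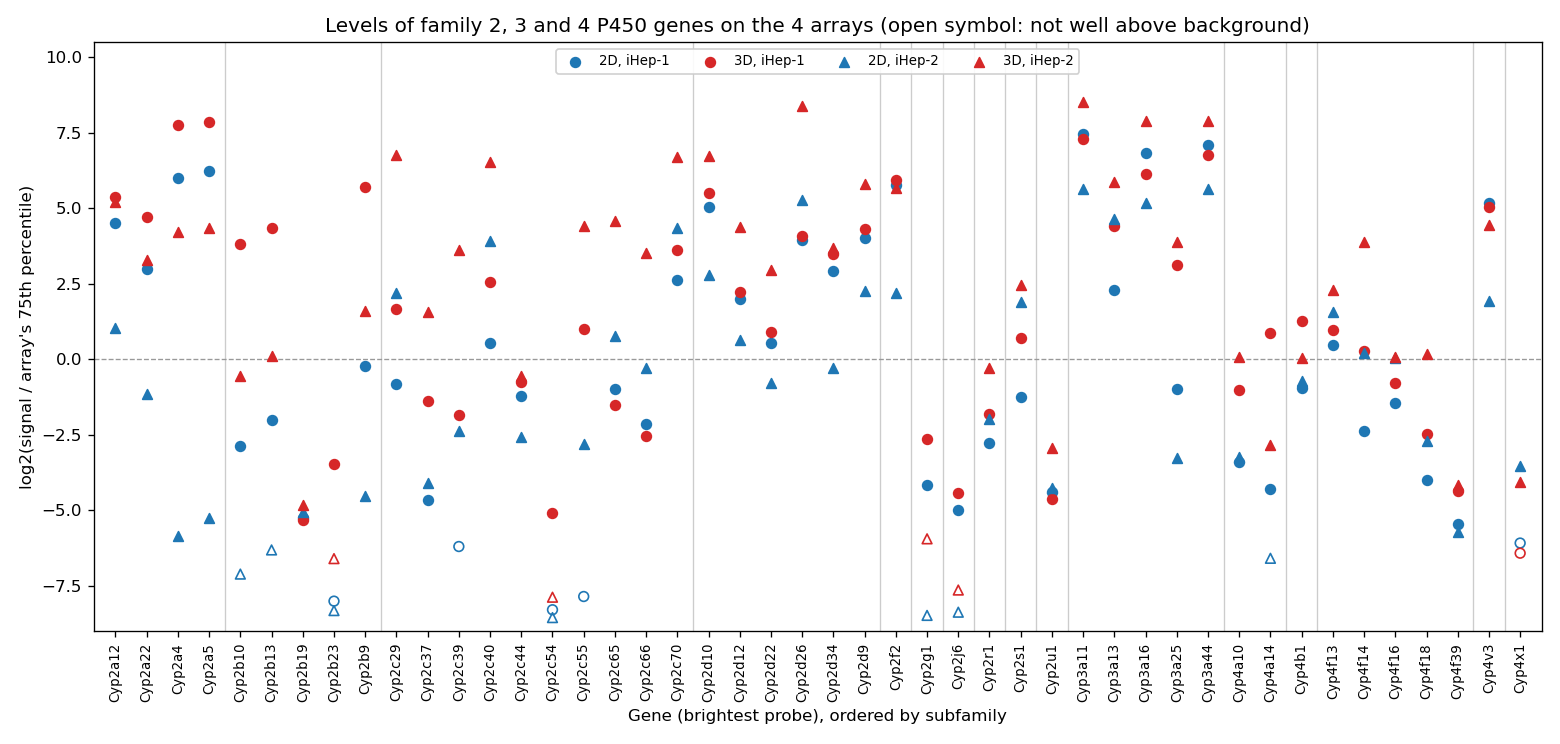
Level (log2 of signal over the array's 75th percentile, vertical axis) of the brightest probe of each of the 46 measured genes (horizontal axis, by subfamily) on the 4 arrays. Blue marks 2D, red 3D, circles iHep-1 and triangles iHep-2, and open symbols are not well above background. Cyp2b10 stood at -2.86 and 3.82 in 2D and 3D of iHep-1, while Cyp3a11 stood at 7.46 and 7.31. Heights may be compared within a gene only.

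The question the design poses is how 3D culture differs from 2D culture. Counted over all 82 member probes, 30 (3.01% in the background of 41171 probes with a value on every array) exceeded 2-fold towards 3D in both experiments, and 1 did so towards 2D (1.43% in the background). No member differed at least 2-fold in opposite directions in the 2 experiments (1.12% in the background). Where an unmeasured side is set no lower than the array's dimmest measured signal, and probes unmeasured in both cultures of an experiment are left out, 25 members stood higher in both (1.96% in the background) and 1 lower (0.921% in the background). The median difference of the 82 probes was 0.91 in iHep-1 and 2.15 in iHep-2, beside -0.03 and 0.02 over the 24468 probes that were measured on at least 2 arrays. Among the 59 members in that set, 26 passed 2-fold towards 3D in both experiments (3.77% in the background) and 1 towards 2D (1.95% in the background), and by group means 47 did (7.56% in the background) and 1 (4.42% in the background). Among the 46 probes measured everywhere, 17 were higher in this sense in both experiments (2.78% in the background) and 1 lower (1.2% in the background), with medians of 0.72 and 2.99.

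None of these differences passed the test. Across the 24468 probes, limma called 0 higher (0% in the background) and 0 lower (0% in the background) at a Benjamini-Hochberg adjusted p under 0.05, and its adjusted p over the 59 members tested ran from 0.613 to 0.946. At an unadjusted p under 0.05 it listed 1717 probes, among them 10 members higher and 1 lower in 3D. This fit has culture as its only term and does not pair the experiments. Its standard errors and p-values, here and below, therefore include the level difference between iHep-1 and iHep-2. With 2 arrays a group, the smallest two-sided p an exact permutation test can give is 0.333. The words higher and lower below therefore describe these 4 arrays.

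The 75th percentile assumes that the bulk of the RNA is alike in the samples. Scaling to the signals of 6 spike-in control probes instead moved every 3D minus 2D difference by -1.80 in iHep-1 and -0.52 in iHep-2, and the median of all probes tested to -1.16. On that scale, 11 of the 59 tested members passed 2-fold towards 3D in both experiments (0.74% in the background) and 2 towards 2D (21% in the background), and by group means 27 did (2.07% in the background) and 3 (62.9% in the background). Limma then called 14 members higher (0.384% in the background) and 1 lower (1.27% in the background) with a prior whose degrees of freedom were infinite. The medians of the 82 members were -0.89 and 1.63, beside -1.83 and -0.50 over all probes tested. This scaling moves every probe by the same amount, so the gap between members and other probes is the same on both scales. Background correction by normexp gave smaller differences for dim probes, with medians of 0.28 and 1.05 over all members, 2.58 and 0.80 for Cyp2b, 0.57 and 0.72 for Cyp4a and 0.43 and 0.36 for Cyp4f.

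**Figure D2:**
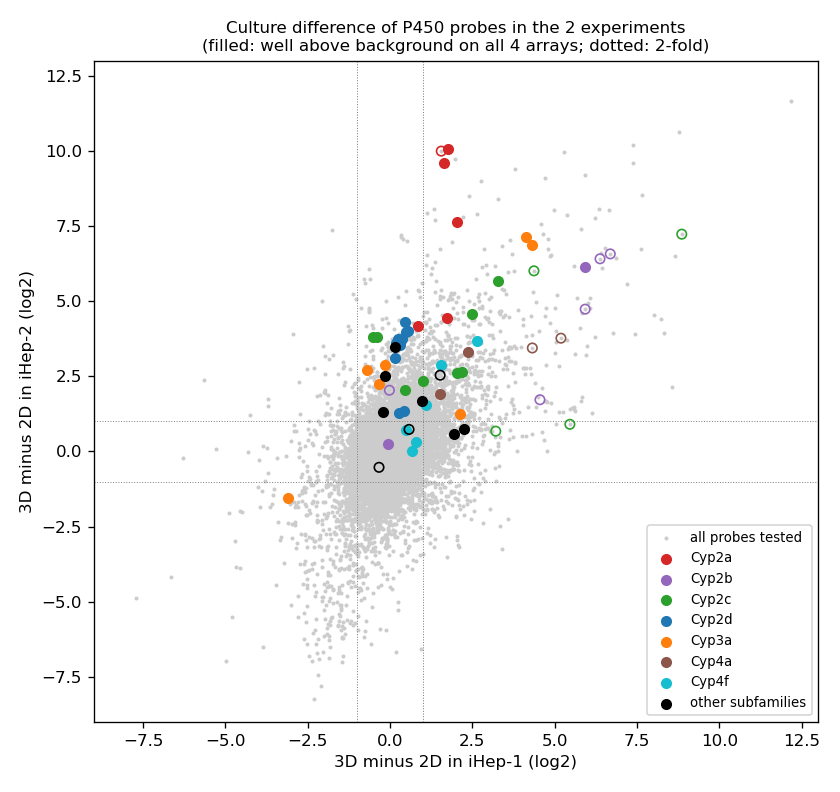
Difference in level, 3D minus 2D (log2), in iHep-1 (horizontal) against iHep-2 (vertical), for the member probes measured on at least 1 array, coloured by subfamily, over all 24468 tested probes in grey. Filled points were measured on all 4 arrays and dotted lines mark 2-fold. Cyp2b probes lie far to the right, with Cyp2b10 at 6.69 and 6.57, while Cyp2d probes lie near 0 in iHep-1, at a subfamily median of 0.37, and high in iHep-2, at 3.60.

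Cyp2b genes had the largest difference that was alike in both experiments. Of 8 probes, 5 were brighter in 3D by 2-fold or more in each experiment (3.01% in the background). With unmeasured sides bounded 4 were (1.96% in the background), without Cyp2b23. The medians were 5.24 in iHep-1 and 3.38 in iHep-2 (3.44 and 2.86 with spike-in scaling, 2.58 and 0.80 with normexp). Cyp2b10, the classic target of CAR and of phenobarbital, read -2.86 (2D) and 3.82 (3D) in iHep-1, and -7.11, not well above background, and -0.54 in iHep-2. Both 3D samples stood above both 2D samples, by 6.69 in iHep-1 and 6.57 in iHep-2, the latter at least 51.9-fold when the unmeasured side is bounded. The mean difference was 6.63 with a standard error of 2.25 and a limma adjusted p of 0.695. With normexp the differences of Cyp2b10 were 5.81 and 2.82, so their likeness depends on the scale. Cyp2b9, a P450 that is female-biased in mouse liver, read by a probe that also lists Cyp2b10, stood at -0.22 and 5.71 in 2D and 3D of iHep-1 and -4.53 and 1.61 in iHep-2. Its groups did not overlap either, although the 3D sample of iHep-2 lay closer to the 2D sample of iHep-1 than to the other 3D sample. A separate Cyp2b9 probe, shown above and annotated to that gene alone, differed by 5.92 and 4.73 (4.38 and 1.40 with normexp).

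The 2 probes of Cyp2b13 disagreed. Its brightest probe, the one annotated to 4 Cyp2b genes, read -2.01 and 4.36 in iHep-1 and -6.31, not well above background, and 0.10 in iHep-2, close to the pattern of Cyp2b9 and Cyp2b10. Its other probe, annotated to Cyp2b13 alone, read -3.82 and -3.84 in iHep-1 and -7.00, not well above background, and -4.96 in iHep-2. The difference was thus 6.38 by one probe and -0.02 by the other in iHep-1, so the level of Cyp2b13 itself is uncertain. Cyp2b23 was measured on 1 array, 3D of iHep-1, at -3.45, and stood at -8.01 in the matching 2D sample and -8.32 and -6.60 in iHep-2, none of them well above background. In iHep-1 it was at least 5.77-fold brighter in 3D when the unmeasured side is bounded, but with normexp that difference was 0.79. In iHep-2 neither culture was measured, so no bound is given. Cyp2b19, an arachidonic acid epoxygenase of keratinocytes, read -5.26 and -5.31 in iHep-1 and -5.06 and -4.82 in iHep-2, and its sign depends on the scale.

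Where the experiment enters as a block in the fit, with an intensity trend and a robust prior, limma called 3 member probes higher (0.094% in the background), all of them Cyp2b, and 0 lower (0.00409% in the background). They were the probes of Cyp2b9, Cyp2b13 and Cyp2b10 just described, each at an adjusted p of 0.0285. The Cyp2b9 and Cyp2b13 probes both list Cyp2b10, so the 3 calls may not be of separate transcripts. The fit has 1 residual degree of freedom, so each call leans on how alike the experiments' differences are. For Cyp2b10 and Cyp2b13 the iHep-2 difference uses a 2D level not well above background, at -7.11 and -6.31. With normexp their differences were less alike, at 5.81 and 2.82 for Cyp2b10 and 5.81 and 3.30 for Cyp2b13. Those of the Cyp2b9 probe, measured on all 4 arrays, were 5.85 and 4.38. With the block alone no probe was called, and the smallest adjusted p, at Cyp2b9, was 0.113.

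Cyp2a genes stood higher in 3D in both experiments relative to the 75th percentile, but by very different amounts. All 6 probes were higher in both by any amount (26.8% in the background), 5 of them at least 2-fold (3.01% in the background). The medians were 1.68 in iHep-1 and 8.61 in iHep-2 (-0.13 and 8.09 with spike-in scaling, so the direction in iHep-1 depends on the scale). Cyp2a4, a testosterone hydroxylase, read 6.01 and 7.77 in 2D and 3D of iHep-1 and -5.86 and 4.21 in iHep-2. Cyp2a5, the coumarin hydroxylase, read 6.24 and 7.86 in iHep-1 and -5.24 and 4.36 in iHep-2. The 2D sample of iHep-2 was the low one for both, while the 2D sample of iHep-1 stood above the 3D sample of iHep-2, so the groups overlapped. The standard errors, 4.56 for Cyp2a4 and 4.42 for Cyp2a5, were nearly as large as the mean differences of 5.92 and 5.61. Without the 2D sample of iHep-2 those means were -0.021 and -0.13. Both values are unpaired, so they include the level difference between iHep-1 and iHep-2.

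All 3 Cyp2a4 probes also list Cyp2a5, and the stretches shown above differ at 3 bases, so the genes were not separated here. The probe of Cyp2a4 shown whole gave a mean difference of 4.83, more than 1 unit below the brightest. Cyp2a12, a steroid hydroxylase, read 4.52 and 5.39 in iHep-1 and 1.04 and 5.20 in iHep-2. Cyp2a22 read 2.99 and 4.71 in iHep-1 and -1.14 and 3.29 in iHep-2. Both repeat the pattern of a low 2D sample in iHep-2, with Cyp2a12 almost level in both 3D samples.

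Cyp2c genes, which oxidise arachidonic acid, retinoids, bile acids and drugs, stood higher in 3D by medians of 2.11 in iHep-1 and 2.63 in iHep-2 over 14 probes (0.31 and 2.11 with spike-in scaling). In both experiments 7 probes stood at least 2-fold higher (3.01% in the background), 1 of them an unmeasured Cyp2c38 probe, and none lower. The count was 6 with unmeasured sides bounded (1.96% in the background). Cyp2c55, a CAR and PXR target, had the largest difference in iHep-1 of all members, 8.86, with -7.85, not well above background, in 2D and 1.01 in 3D. In iHep-2 it read -2.80 and 4.43. Both 3D samples stood above both 2D samples, and the iHep-1 difference was at least 127-fold when bounded. The mean difference was 8.04 with a standard error of 2.25 and a limma adjusted p of 0.695.

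Cyp2c29, an epoxygenase that CAR induces, read -0.83 and 1.67 in iHep-1 and 2.20 and 6.76 in iHep-2. Cyp2c39, which oxidises retinoic acid, read -6.20, not well above background, and -1.83 in iHep-1, and -2.38 and 3.63 in iHep-2. Cyp2c40, an arachidonic acid hydroxylase found in intestine, read 0.54 and 2.58 in iHep-1 and 3.92 and 6.53 in iHep-2. In Cyp2c29 and Cyp2c40 the 2D sample of iHep-2 stood above the 3D sample of iHep-1, so the groups overlapped, and in Cyp2c39 they did not. The other Cyp2c40 probe, aligned above with Cyp2c54, differed by 2.18 and 2.65, against 2.03 and 2.60 for the first. Cyp2c70, which makes the muricholic acids of mouse bile, read 2.62 and 3.62 in iHep-1 and 4.34 and 6.70 in iHep-2, and its groups overlapped too.

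Cyp2c65 and its neighbour Cyp2c66, both known from intestine, had unlike differences in the 2 experiments. Cyp2c65 read -0.99 and -1.51 in iHep-1 and 0.78 and 4.59 in iHep-2. Its difference was -0.53 in iHep-1 and 3.81 in iHep-2, and for Cyp2c66 it was -0.41 and 3.81. The single high sample of both was 3D of iHep-2, and without it the mean difference of Cyp2c65 was -1.41. That value is unpaired, so it includes the level difference between iHep-1 and iHep-2. Of 7 intestinal markers tested, 4 stood higher in 3D in both experiments by any amount (31.8% of all probes tested) and 2 lower (33.8%). Fabp2, a fatty acid binding protein of enterocytes, was among the higher, at -2.51 and 1.61 in iHep-1 and 1.23 and 4.0 in iHep-2. The 2 lower were Cdx2, at -0.43 and -0.08, and Cdh17, at -0.61 and -1.69. The relation of these markers to the Cyp2c genes was not tested. Among the remaining Cyp2c genes, the brightest Cyp2c37 probe, which also lists Cyp2c50, differed by 3.28 and 5.66. The other Cyp2c37 probe, which lists no other gene, differed by 5.46 and 0.90. In 3D the first stood higher in iHep-2 than in iHep-1, by 2.96, and the second lower, at -3.96. The Cyp2c44 probe, whose current RefSeq symbol is Cyp2c23, differed by 0.47 and 2.03. Cyp2c54 was measured on 1 array, 3D of iHep-1, at -5.08, while its Cyp2c40 relative was measured on all 4.

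Cyp2d genes, the cluster that in mouse corresponds to the human debrisoquine hydroxylase, were the most uniform of the large subfamilies. All 11 probes, 1 of them unmeasured, stood higher in 3D in both experiments by any amount (26.8% in the background). The median was only 0.37 in iHep-1 against 3.60 in iHep-2 (-1.43 and 3.08 with spike-in scaling, so the direction in iHep-1 depends on the scale). Only the unmeasured Cyp2d13 probe passed 2-fold in both. The 10 measured probes ranged from 0.14 to 0.54 in iHep-1 and from 1.28 to 4.31 in iHep-2. Cyp2d26 read 3.96 and 4.09 in iHep-1 and 5.28 and 8.39 in iHep-2. Cyp2d10 read 5.04 and 5.52 in iHep-1 and 2.78 and 6.74 in iHep-2. Cyp2d9, the testosterone hydroxylase that is male-biased in mouse liver, read 4.01 and 4.31 in iHep-1 and 2.27 and 5.80 in iHep-2.

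In Cyp2d10 and Cyp2d9 both 3D samples stood above both 2D samples, with iHep-2 lowest in 2D and highest in 3D, whereas Cyp2d26 was higher in iHep-2 in both cultures and its groups overlapped. Without the 3D sample of iHep-2 the mean difference of Cyp2d26 was -0.53, an unpaired value that includes the level difference between experiments. Cyp2d12 read 1.99 and 2.24 in iHep-1 and 0.64 and 4.39 in iHep-2. Cyp2d34 read 2.94 and 3.48 in iHep-1 and -0.30 and 3.70 in iHep-2. Cyp2d22 read 0.55 and 0.92 in iHep-1 and -0.79 and 2.95 in iHep-2. These 3 genes had the same order of samples as Cyp2d10. The other probes of Cyp2d22 gave mean differences of 0.88 and 0.78 against 2.06 for the brightest. Both Cyp2d9 probes also list Cyp2d11 and Cyp2d22, and one also lists Cyp2d34.

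The small subfamilies of family 2 held few measured genes. Cyp2f2, which oxidises naphthalene in club cells and is also a liver P450, read 5.79 and 5.95 in iHep-1 and 2.18 and 5.67 in iHep-2. Its 2D sample of iHep-2 was low and the other 3 were close together (-1.64 and 2.97 as differences with spike-in scaling, against 0.16 and 3.49). The club cell gene Scgb1a1 read -0.55 and 0.17 in iHep-1 and -3.60 and -4.71 in iHep-2. Scgb3a1 and Scgb3a2 were likewise measured on all 4 arrays. Of the other lung markers, Nkx2-1 was measured on 2 arrays, Sftpa1 and Sftpc on 1 each and Sftpb on none. Cyp2r1, the vitamin D 25-hydroxylase, read -2.77 and -1.81 in iHep-1 and -1.96 and -0.27 in iHep-2, a difference of 0.96 and 1.69 (-0.84 and 1.17 with spike-in scaling). Cyp2s1, an epithelial P450, read -1.23 and 0.72 in iHep-1 and 1.90 and 2.47 in iHep-2.

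Cyp2s1 thus differed by 1.95 in iHep-1 and 0.57 in iHep-2, and its groups overlapped. Cyp2u1, a fatty acid hydroxylase, read -4.40 and -4.61 in iHep-1 and -4.25 and -2.95 in iHep-2. Cyp2g1, known from olfactory mucosa, was measured in iHep-1 only, at -4.15 and -2.63, and read -8.48 and -5.94 in iHep-2, not well above background. Cyp2j6, an epoxygenase, was likewise measured in iHep-1 only, at -4.99 and -4.42, and read -8.37 and -7.64 in iHep-2. It was the only 1 of 5 Cyp2j genes measured on any array, through 1 of 10 Cyp2j probes, and the second probes of Cyp2g1 and Cyp2j6 were measured on none. The second Cyp2g1 probe gave a mean difference of 0.79 against 2.03.

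Cyp3a genes were measured throughout, with each of the 7 probes well above background everywhere, and their differences were unlike each other. The median difference was -0.16 in iHep-1 and 2.70 in iHep-2 (-1.96 and 2.18 with spike-in scaling). In both experiments 3 probes exceeded 2-fold towards 3D (3.01% in the background) and 1 towards 2D (1.43% in the background). Cyp3a11, the PXR target that is the main CYP3A enzyme of adult mouse liver, read 7.46 and 7.31 in iHep-1 and 5.64 and 8.52 in iHep-2. Cyp3a16, a form of fetal and newborn liver, read 6.84 and 6.13 in iHep-1 and 5.19 and 7.89 in iHep-2. Both were near level in iHep-1 and higher in 3D in iHep-2, and their groups overlapped.

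Cyp3a25, an adult liver form, read -0.99 and 3.14 in iHep-1 and -3.27 and 3.88 in iHep-2. Both 3D samples lay close together and well above both 2D samples, and the mean difference was 5.64 with a standard error of 0.90 and a limma adjusted p of 0.695. Its second probe, shown above, differed by 4.30 and 6.86, against 4.13 and 7.15 for the first. Both probes list Cyp3a59 as well, and one lists Cyp3a57. Cyp3a13, a form known from intestine, read 2.31 and 4.43 in iHep-1 and 4.64 and 5.87 in iHep-2, with overlapping groups.

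Cyp3a44, a female-biased liver form, gave opposite readings by its 2 probes, which lie 177 bases apart in the genome. The first 30 bases of each are shown because the gene's direction turns on which probe is read:
Cyp3a44 (A_52_P571006, chr5:146585954-146586013, - strand, first 30 bases): cctctgaaattaagcagacaaggaattctt
Cyp3a44 (A_52_P366803, chr5:146585717-146585776, - strand, first 30 bases): cactgagctttctcagtgtctgtgcaagtt

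The first probe read 7.10 and 6.76 in iHep-1 and 5.64 and 7.90 in iHep-2, which follows Cyp3a11 and Cyp3a16. The second read 6.12 and 3.01 in iHep-1 and 5.0 and 3.45 in iHep-2, with both 3D samples below both 2D samples. Its differences of -3.11 and -1.54 made it the only member at least 2-fold lower in 3D in both experiments, with a mean of -2.33, a standard error of 0.49 and a limma adjusted p of 0.695. Neither lists another gene, and which of them reads Cyp3a44 itself was not tested. The near-identical Cyp3a41a, outside the naming rule, read 8.77 and 8.42 in iHep-1 and 7.54 and 9.33 in iHep-2, the order of samples of the first Cyp3a44 probe.

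**Figure D3:**
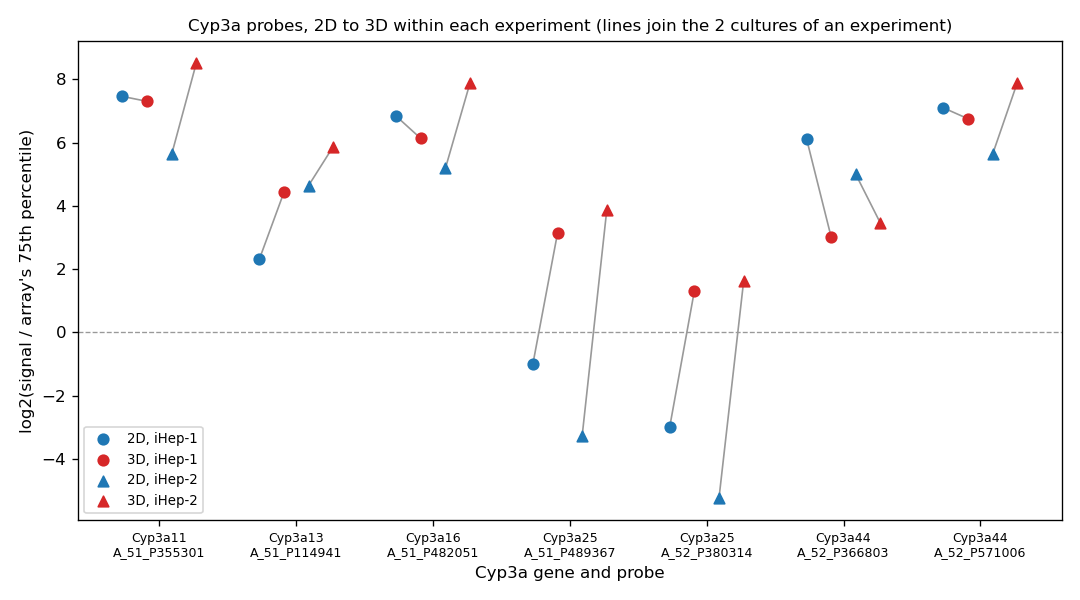
Levels (log2 of signal over the array's 75th percentile) of the 7 Cyp3a probes, with a line joining 2D (blue) and 3D (red) of iHep-1 (circles) and of iHep-2 (triangles). Both Cyp3a25 probes were higher in 3D in both experiments, from -0.99 to 3.14 and from -3.27 to 3.88 for the brighter. The 2 Cyp3a44 probes differ in direction, at -3.11 and -0.35 in iHep-1.

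Cyp4a genes, the fatty acid omega-hydroxylases that PPAR alpha drives, stood higher in 3D in both experiments at 6 of 7 probes (26.8% in the background). By at least 2-fold 5 did (3.01% in the background), and 4 with unmeasured sides bounded, without Cyp4a31 (1.96% in the background). The medians were 1.60 in iHep-1 and 2.33 in iHep-2 (-0.20 and 1.81 with spike-in scaling). With normexp 4 probes stood higher in both (6802 of the 24468 probes tested), 2 of them at least 2-fold (395 of the 24468). Cyp4a10 read -3.39 and -1.02 in iHep-1 and -3.22 and 0.09 in iHep-2 by its brightest probe. Both 3D samples stood above both 2D samples, and the mean difference was 2.84 with a standard error of 0.46. The probe A_52_P257774, which also lists Cyp4a32, was unmeasured in both 2D samples and read -3.19 and -3.72 in 3D, at least 6.29-fold brighter there. It had the lowest limma adjusted p of all members, 0.613.

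The remaining Cyp4a10 probes gave mean differences of 1.71, and of 1.19 where no array was well above background. Cyp4a14 read -4.31 and 0.88 in iHep-1 and -6.59, not well above background, and -2.82 in iHep-2, with both 3D samples above both 2D samples. Its difference was 5.19 in iHep-1 and 3.77 in iHep-2. Cyp4a29 and Cyp4a31 were measured on no array. The male-biased relatives Cyp4a12a and Cyp4a12b, outside the naming rule, were measured on 3 arrays and 1 array.

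Most other family 4 genes differed less. The 7 Cyp4f probes, for enzymes that hydroxylate leukotrienes and long fatty acids, had medians of 1.11 in iHep-1 and 0.73 in iHep-2 (-0.69 and 0.21 with spike-in scaling). At least 2-fold higher in both stood 3 (3.01% in the background). Cyp4f14, a leukotriene hydroxylase of liver, read -2.38 and 0.26 in iHep-1 and 0.22 and 3.89 in iHep-2. Cyp4f18, its counterpart in white blood cells, read -4.01 and -2.45 in iHep-1 and -2.69 and 0.18 in iHep-2. Cyp4f39, a skin lipid hydroxylase, read -5.45 and -4.35 in iHep-1 and -5.70 and -4.16 in iHep-2. In all 3 the samples in 3D stood above those in 2D, although in Cyp4f14 the 3D sample of iHep-1 and the 2D sample of iHep-2 were nearly level.

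Cyp4f13 read 0.49 and 0.98 in iHep-1 and 1.58 and 2.31 in iHep-2. Cyp4f16 read -1.45 and -0.79 in iHep-1 and 0.06 and 0.08 in iHep-2. Both were higher in iHep-2 in either culture, and their groups overlapped. Cyp4b1, a lung P450 that activates plant toxins, read -0.96 and 1.28 in iHep-1 and -0.70 and 0.05 in iHep-2. Cyp4v3, a fatty acid hydroxylase, read 5.19 and 5.04 in iHep-1 and 1.95 and 4.44 in iHep-2, with 1 low sample as in Cyp2f2. Cyp4x1, a brain P450, was measured in iHep-2 only, at -3.53 and -4.06, and read -6.08 and -6.42 in iHep-1.

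Across members the 2 experiments ordered the differences only loosely. Over the 46 probes measured on all arrays, the 3D minus 2D difference in iHep-1 and that in iHep-2 had a Pearson correlation of 0.50 and a Spearman correlation of 0.32. Several of these probes share a target gene or a transcript, so they are not independent points. The difference between experiments was more alike in the 2 cultures, with a Pearson correlation of 0.80 over the same probes.

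The difference between experiments was then read by chromosome. Of the 82 probes, 16 were brighter in iHep-2 by at least 2-fold whatever the culture (3.55% in the background) and 14 dimmer (3.67% in the background). Of the 21 probes of chromosome 7, 11 were at least 2-fold lower in iHep-2 in both cultures (3.67% in the background). By the same limit 1 was higher (3.55% in the background). This chromosome holds the Cyp2a, Cyp2b, Cyp2e, Cyp2f, Cyp2g, Cyp2r and Cyp2s genes, and its medians were -3.48 in 2D and -1.42 in 3D. Of the 14 Cyp2c probes of chromosome 19, 8 were at least 2-fold higher in iHep-2 in both cultures (3.55% in the background). None was lower by that much (3.67% in the background), and the medians were 1.75 and 3.25. The 11 Cyp2d probes of chromosome 15 stood lower in 2D of iHep-2, by a median of -1.75, and higher in 3D, at 1.22. On chromosome 5 the medians were -1.56 and 0.96. On chromosome 4, with 19 Cyp2j, Cyp4a, Cyp4b and Cyp4x probes, they were -0.06 and -0.10. There 2 probes were at least 2-fold higher in both cultures (3.55% in the background) and 3 lower (3.67% in the background). On chromosome 17, with 6 Cyp4f probes, the medians were 1.15 and 0.81. The remaining 3 probes lie on chromosomes 3 and 8. No test was run on these differences, which rest on 1 array each. Spike-in scaling moved them by -0.53 in 2D and 0.75 in 3D and left the signs of these medians as they were, except that of chromosome 4 in 3D, which became 0.65. With normexp the chromosome 7 medians were -0.63 and -0.74, and that of chromosome 4 in 2D turned to 0.035.

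The members were also grouped by known control and role. Of 6 probes of CAR and PXR targets (Cyp2b10, Cyp2c29, Cyp2c37, Cyp2c55 and Cyp3a11), 4 exceeded 2-fold towards 3D in both experiments (3.01% in the background), with medians of 4.37 and 5.11. Of 6 probes of PPAR alpha targets, 2 of them unmeasured, 5 did (3.01% in the background), and 4 with unmeasured sides bounded (1.96% in the background). Of 10 probes of genes that are female-biased in liver, 6 did (3.01% in the background) and 1 stood lower (1.43% in the background). The Cyp2a4 probes among them also list Cyp2a5, and the brighter Cyp2b9 and Cyp2b13 probes list Cyp2b10. Neither Cyp2a5 nor Cyp2b10 is on that list, so the count may include their RNA. The only male-biased gene, Cyp2d9, differed by 0.30 and 3.54. Of 19 probes for fatty acid hydroxylases and epoxygenases, 6 exceeded 2-fold towards 3D in both experiments (3.01% in the background), with medians of 0.78, which spike-in scaling turns negative, and 1.24.

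Genes that serve these enzymes were listed next. Of 14 genes for electron donors and haem making and breakdown, all measured on all arrays, 0 passed limma's test, 12 stood higher in 3D in both experiments by any amount (31.8% of all probes tested) and 0 lower (33.8%; 24.9% of all probes). By at least 2-fold in both, 1 did (3.77% of all probes tested), Alas1. Alas1, the rate-limiting enzyme of haem synthesis in liver, read 3.37 and 5.17 in iHep-1 and 2.99 and 4.05 in iHep-2. Por, the reductase that feeds all microsomal P450s, read 6.16 and 6.57 in iHep-1 and 5.16 and 6.33 in iHep-2. The electron carrier Cyb5a differed by 0.64 and 1.31, Cyb5r3 by 0.56 and 1.55, Pgrmc1 by 0.35 and 0.73, Cyb5b by 0.09 and 0.76 and Urod by 0.24 and 0.55. The list medians were 0.30 and 0.66, which spike-in scaling turns negative in iHep-1.

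Of 28 regulators, 24 were tested, 0 passed limma's test, and Cux2, Esr1, Foxa1 and Nr0b2 were measured on no array. By any amount, 17 of the 24 stood higher (31.8% of all probes tested) and 3 lower (33.8%) in both experiments, and by at least 2-fold 2 did (3.77%) and 1 (1.95%), with medians of 0.27, which spike-in scaling turns negative, and 0.74. Nr1i3, which encodes CAR, stood at least 2-fold higher in both, at -3.39 and -1.80 in iHep-1 and -3.26 and 0.25 in iHep-2. Nr1h4, the bile acid receptor, was also at least 2-fold higher by value, at 1.56 and 1.70, but was measured in iHep-2 only. Spike-in scaling, which moves iHep-1 differences by -1.80, turns those of Nr1i3 and Nr1h4 negative in iHep-1. Onecut1, a liver transcription factor, stood lower by 1 unit or more, at -1.02 and -1.16. Rxra, Dbp, Nfe2l2, Bcl6 and Cebpb had differences from 0.06 to 0.51 in iHep-1 and from -0.83 to 1.21 in iHep-2. PXR itself, Nr1i2, differed by 0.43 and 1.36, Ppara by 0.74 and 1.32 and Hnf4a by -0.81 and 0.23, 3 genes named after their values were seen because the targets above are theirs. Of the epoxide hydrolases that act after P450 epoxygenases, Ephx1 differed by 0.63 and 1.99, Ephx2 by -0.17 and 0.45 and Ephx4 by 0.74 and 0.43, while Ephx3 was measured on no array.

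Promoter sequence was available for 45 of the 57 genes, as 51 promoters of 250 bases before to 50 after the start, from RefSeq on build GRCm38.p6. The letters CAAAGTCCA, a core of the HNF4 element, searched on both strands, occurred in 5 of the 51 (9.80%) and in 0.475% of all 32851 promoters. Those 5 windows are shown because all fall in Cyp2c and Cyp3a genes, with the motif in capitals and each sequence on its gene's strand:
Cyp2c40 (chr19:39812841-39812869, - strand): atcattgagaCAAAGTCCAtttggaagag
Cyp2c65 (chr19:39060880-39060908, + strand): gatgttggaaCAAAGTCCActgggaggag
Cyp2c70 (chr19:40187332-40187360, - strand): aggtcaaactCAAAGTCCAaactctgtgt
Cyp3a11 (chr5:145879945-145879973, - strand): aagagagtacCAAAGTCCAgtgatgcaaa
Cyp3a16 (chr5:145469804-145469832, - strand): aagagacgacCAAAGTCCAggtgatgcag

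The motif lay 45, 116, 64, 109 and 99 bases before the start in this order of genes. Of 5 motifs searched, 4 are reported here. The TATA box letters TATAAA occurred in 39.2% of the member promoters and 13.6% of all, the C/EBP letters TTGCNNAA in 31.4% and 10.8%, and the nuclear receptor element AGGTCA in 31.4% and 16.3%, each searched on both strands. One stretch could count for more than 1 motif. Neighbouring copies share sequence, so these promoters are not independent, and a match describes letters only.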

How the data were processed

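Each of the 4 samples was hybridised to a 1-colour array of Agilent design 014868 on 1 slide. Per the labels' protocols, an RNeasy Micro kit gave the total RNA and a Quick Amp kit the Cy3 label. The deposited scanner files hold linear intensity values and per-spot flags from Feature Extraction, version 10.7.1.1 per the file headers and 9.5.1.1 per the submitters' processing notes. The series table holds the authors' deposited intensity values of the same arrays, which were taken as log2 here. Per the file headers, slide 1 and a single scan hold all arrays, so neither differed between groups.

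The processed signal was averaged over spots of a probe, without control spots and the 72 to 85 outlier spots per array, divided by the array's 75th percentile and taken as log2. Probes well above background on at least 2 arrays were fitted with limma 3.58.1 in R 4.3.3 (2 residual degrees of freedom, prior 1.70), after tests on simulated data. For a probe unmeasured on a whole group, the fold bound uses, per array, the higher of the dimmest measured signal and the probe's own, as means of log2 values.

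The members, gene lists and marker lists were chosen with earlier results of these data known. By the rule for named genes, up to 6 genes per subfamily with the highest level on any array are given by their brightest probe, with other probes that differ in sign or by over 1 unit. A few others are named where a count is small, after their values were seen, and 1 gene of the regulator list and 1 motif are not reported here. Same-numbered samples come from 1 experiment per the design text and deviated together (correlation 0.655), so the experiment is a pairing. The plain fit is the main one. Alternatives were normexp with quantile normalization, the series table, spike-in scaling, other filters, 1 probe per gene name, the experiment block and leaving out each sample.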

Additional observations from a re-analysis of the deposited data

How the results depend on the processing

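The fit without a block called 0 member probes, and so did the fit with the experiment as a replicate block, while the replicate block with trend and robust prior called 3 (over all 24468 probes tested, 23 higher and 1 lower), so the pairing changes calls only in that form. With spike-in scaling limma called 14 member probes higher and 1 lower (94 and 310 over all probes tested), with a prior whose degrees of freedom were infinite. On that scale 27 stood at least 2-fold higher by group means (47 otherwise) and 3 lower (1 otherwise), and 11 higher (26 otherwise) and 2 lower (1 otherwise) in both experiments. Restricting to probes well above background on all 4 arrays left 17 higher in both, and leaving out probes shared with relatives, an alternative chosen after seeing the data, left 15. Bounding unmeasured sides, also chosen after seeing the data, left 25 higher and 1 lower in both. With 1 probe per gene name, 0 stood lower, by group means or in both experiments, since the dimmer Cyp3a44 probe drops out. Leaving out each sample in turn, which assumes that a lone sample varies like the others, gave 0 calls, 36 to 47 higher and 1 to 4 lower by group means, and a median difference of 1.20 to 2.66 (2.00 with all samples). Counts in both experiments have no such value, since 1 pair is left. The fits with a sample left out do not pair the experiments, so their differences include the level difference between iHep-1 and iHep-2.

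Of 42 named probes, 15 reversed the sign of their mean difference somewhere. Spike-in scaling did so for Cyp2b19 (-1.07), Cyp2j6 (-0.51), Cyp2u1 (-0.62), Cyp3a16 (-0.16), the brighter Cyp3a44 probe (-0.20), Cyp4f13 (-0.55) and Cyp4f16 (-0.82). Cyp2b19 also reversed with normexp (-0.00085) and the authors' series table (-0.095). Over the 4 fits that each leave out 1 sample, the difference ran from -0.021 to 11.9 for Cyp2a4, -0.13 to 11.4 for Cyp2a5, -0.15 to 0.34 for Cyp2b19 and -1.41 to 4.70 for Cyp2c65. It ran from -0.53 to 3.77 for Cyp2d26, -0.13 to 4.19 for Cyp2g1, -1.03 to 2.34 for Cyp2j6, -0.30 to 2.83 for Cyp2s1 and -0.29 to 1.37 for Cyp2u1. In family 4 it ran from -0.053 to 1.27 for Cyp4f13, -0.42 to 1.09 for Cyp4f16, -0.44 to 2.79 for Cyp4v3 and -1.71 to 0.85 for Cyp4x1. Of the other values of named probes, 447 kept direction and side of the threshold, and 12, for 9 probes, kept the direction and passed it, with spike-in scaling or the block with trend. Each cause beyond the sample left out was not tested. A dim probe has only a bound, and 21 member probes gave no level on any array.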

Other observations

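Relatives outside the naming rule gave a few further readings. Cyp2ab1 read -4.01 and -5.90 in 2D and 3D of iHep-1 and -4.68 and -5.77 in iHep-2, so it stood lower in 3D by 1 unit or more in both experiments, unlike all but 1 of the member probes. It was well above background on 3 of the 4 arrays. Cyp4a12a, a male-biased fatty acid hydroxylase of liver, differed by 0.90 and 0.80, and the pseudogene Cyp4f41-ps by 1.13 and 0.24.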
